A study of Mus musculus with 8 samples.

Results

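Adipocyte transcripts were followed in ventral prostates from hSKP2-KI and wild type (WT) animals. The transcripts were those of 8 genes fixed by name, Adipoq, Plin1, Plin4, Fabp4, Lep, Cfd, Cidec and Lipe, out of 36333 genes listed for the tissue. All 8 passed the filter on low values that left 13080 genes for testing, and all 8 had at least 1 TPM in every mouse. TPM, a transcript's share of all transcripts after scaling to a fixed total, counts the reads on a gene per unit of transcript length, so that levels of different genes can be set side by side, while the number of reads behind a value is unknown.

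The knock-in mice carried the human SKP2 coding sequence, joined through a P2A linker, in exon 1 of the mouse probasin gene, so that the probasin promoter, which is active in prostate epithelium, drove it. Both genotypes were male FVB/N mice of 12 months, and the labels give no treatment. There were 4 hSKP2-KI and 4 WT mice, each sequenced as its own library, and the founder line of the knock-in mice is not given in the sources used here. Skp2 ranged from 37.3 to 60.6 TPM in hSKP2-KI and from 1.05 to 2.27 TPM in WT prostates. Reads were mapped to mouse sequence, so these Skp2 values do not tell the human insert from the mouse gene. Pbsn, the gene that received the insert, ranged from 93.0 to 174 TPM in hSKP2-KI and from 3980 to 9232 TPM in WT prostates. Every library thus matched its label. Prostate epithelial transcripts were abundant in all 8 mice, with Sbp between 198342 and 256865 TPM, and 5 seminal vesicle genes together reached at most 0.656 TPM.

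White adipocytes store triglyceride in a lipid droplet that fills the cell and release hormones into the blood. Perilipins coat the droplet and control the access of lipases, fatty acid binding proteins carry the released fatty acids, and the adipokines adiponectin and leptin report the state of the fat store. Fat lies around the mouse prostate, and how much of it stayed with each dissected lobe is not given in the sources used here. In bulk samples such as these, fewer cells of a type and less RNA per cell cannot be told apart.

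On GRCm38, the build named in the processing notes of the submitters, Adipoq (Entrez 11450) lies at chr16:23146536-23157968, Lep (Entrez 16846) at chr6:29060221-29073876, Cfd (Entrez 11537) at chr10:79890853-79892655 and Fabp4 (Entrez 11770) at chr3:10204342-10208616. The droplet genes are Plin1 (Entrez 103968) at chr7:79721164-79732904, Plin4 (Entrez 57435) at chr17:56100587-56109948 and Cidec (Entrez 14311) at chr6:113424634-113435760, and the lipase gene Lipe (Entrez 16890) lies at chr7:25379527-25398486. The 8 genes thus lie on 6 chromosomes. Of these genes 7 had a promoter window in RefSeq's tables for GRCm38.p6, from 250 bases before to 50 bases after a start site, with 9 windows in all. Windows of 4 genes are printed. Adipoq and Plin1 followed each other from mouse to mouse, Lep departed from that course, and Cfd did so to a lesser degree. Letters that match a searched motif are in capitals.
Adipoq, chr16:23146286-23146585, plus strand: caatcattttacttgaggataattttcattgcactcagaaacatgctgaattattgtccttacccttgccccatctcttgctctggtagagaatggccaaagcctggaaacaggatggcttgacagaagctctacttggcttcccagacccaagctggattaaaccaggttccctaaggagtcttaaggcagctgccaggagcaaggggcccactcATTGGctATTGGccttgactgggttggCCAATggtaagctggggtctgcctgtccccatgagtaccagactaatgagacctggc
Plin1, chr7:79732727-79733026, minus strand: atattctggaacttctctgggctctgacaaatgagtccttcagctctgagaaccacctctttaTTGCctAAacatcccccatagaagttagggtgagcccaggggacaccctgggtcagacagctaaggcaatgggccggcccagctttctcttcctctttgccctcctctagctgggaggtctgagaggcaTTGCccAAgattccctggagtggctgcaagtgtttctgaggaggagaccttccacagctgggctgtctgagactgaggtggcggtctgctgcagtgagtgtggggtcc
Lep, chr6:29059971-29060270, plus strand: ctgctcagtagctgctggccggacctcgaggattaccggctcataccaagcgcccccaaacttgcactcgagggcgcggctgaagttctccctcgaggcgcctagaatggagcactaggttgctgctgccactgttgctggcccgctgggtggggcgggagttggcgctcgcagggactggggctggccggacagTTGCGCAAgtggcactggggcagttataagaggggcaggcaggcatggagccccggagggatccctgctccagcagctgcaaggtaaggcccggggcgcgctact
Cfd, chr10:79890603-79890902, plus strand: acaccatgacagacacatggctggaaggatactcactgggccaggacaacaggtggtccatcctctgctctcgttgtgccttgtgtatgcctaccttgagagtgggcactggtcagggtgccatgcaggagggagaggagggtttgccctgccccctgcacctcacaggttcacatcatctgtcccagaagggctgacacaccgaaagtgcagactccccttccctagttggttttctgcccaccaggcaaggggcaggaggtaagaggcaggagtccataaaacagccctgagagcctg

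The motifs were searched on both strands. The C/EBP motif TTGCNNAA, bound by factors of adipocyte differentiation, was found once in the Lep window and at 2 places in the Plin1 window, and also in 1 of the windows of Cidec. Among all 32851 promoter windows 10.8% held it. CCAAT was found at 3 places in the Adipoq window and once in that of Plin4, and 37.4% of all windows held it. The nuclear receptor element AGGTCA, present in 16.3% of all windows, its direct repeat AGGTCANAGGTCA, present in 0.0396%, and the TATA box TATAAA, present in 13.6%, were in none of the 9 windows. The Cfd window held none of these letters. The direct repeat contains the AGGTCA element, and the other motifs shared no position in these windows. A match is a description of the letters and no evidence of binding.

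From the lowest to the highest of all mice, the 8 transcripts spanned from 2.95-fold for Lipe to 12.3-fold for Cfd. Within a genotype the span was smallest for Lipe, 1.96-fold in hSKP2-KI and 2.33-fold in WT prostates, and at least 2.97-fold for the other 7 genes. None of the 8 passed limma's test between hSKP2-KI and WT prostates (0 of 8 with an adjusted p under 0.05 and 0 of 8 with an unadjusted p under 0.05), where 33.9% of all tested genes were called, 32.7% as higher and 1.23% as lower in hSKP2-KI prostates. Adjusted p-values of the 8 ranged from 0.244 for Cfd to 0.905 for Cidec. The genotypes overlapped for all 8 genes, while 35.1% of all tested genes had no overlap, 34% with hSKP2-KI higher and 1.03% with hSKP2-KI lower. Together the 8 transcripts made up 0.0159% of the TPM in WT replicate 3 and 0.113% in hSKP2-KI replicate 4, the mice with the lowest and the highest sum. The summed level was 531 ± 417 TPM (SD, n = 4) in hSKP2-KI and 558 ± 271 TPM (SD, n = 4) in WT prostates.

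**Figure D1:**
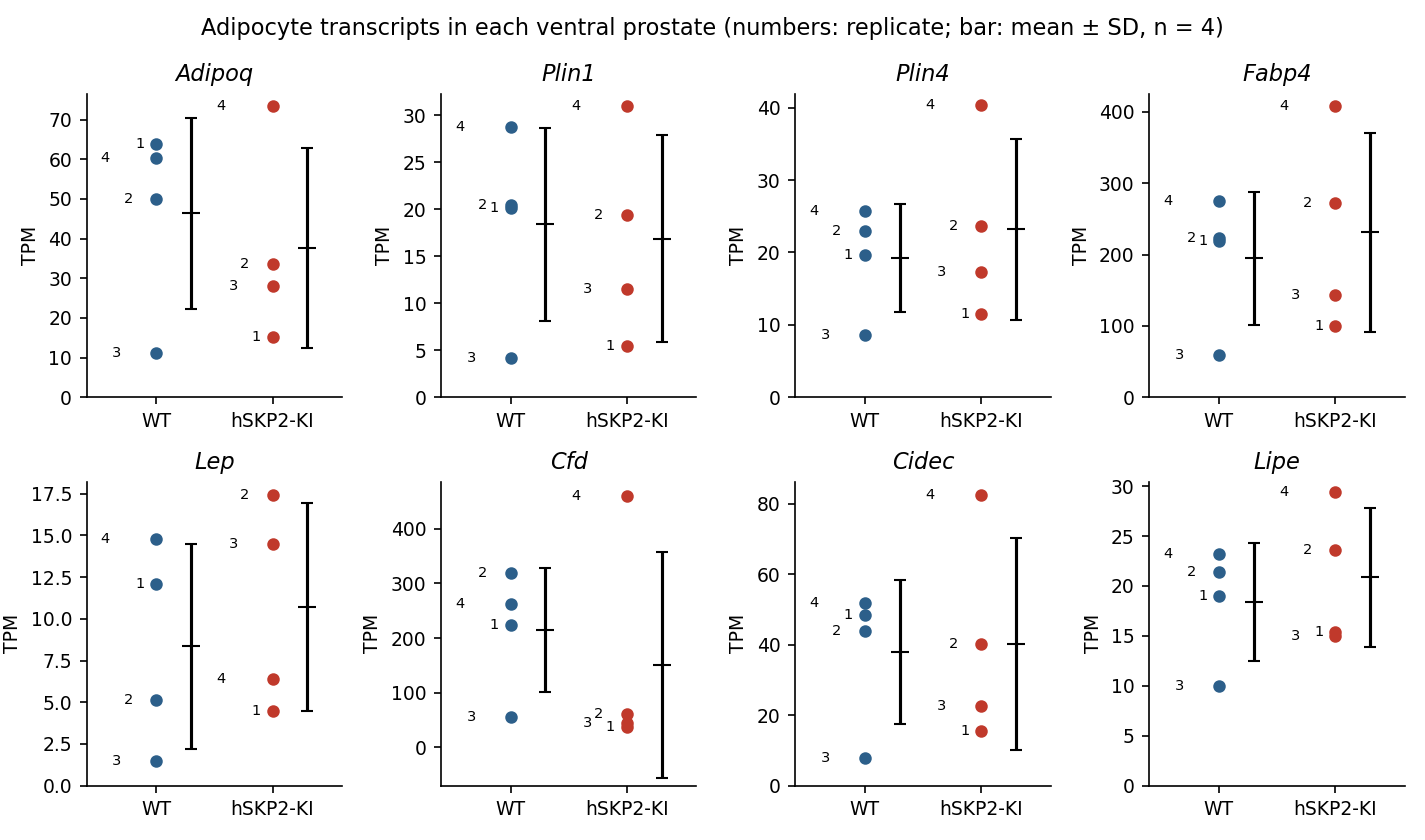
TPM of each adipocyte transcript (vertical axes, linear) in the 4 WT and 4 hSKP2-KI ventral prostates, with points numbered by replicate and bars for the mean ± SD. The genotypes overlap in every panel, WT replicate 3 is the lowest mouse for 7 of the 8 genes, and hSKP2-KI replicate 4 is the highest for 7 of the 8. For Cfd the lower end of the hSKP2-KI bar lies below 0.

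Among the hormones, Adipoq, which encodes adiponectin and is made almost only by adipocytes, stood at 15.1, 33.7, 28.0 and 73.5 TPM in hSKP2-KI replicates 1 to 4 and at 63.9, 49.99, 11.2 and 60.2 TPM in WT replicates 1 to 4. The highest and the lowest WT mouse were thus further apart than the genotype means, and 1 WT mouse lay below all hSKP2-KI mice. The log2 fold change was -0.26 (95% confidence interval -1.46 to 0.94, limma adjusted p = 0.711).

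Lep encodes leptin, the hormone that signals the size of the fat store. Its level was 4.51, 17.4, 14.5 and 6.40 TPM in hSKP2-KI replicates 1 to 4, and 12.1, 5.12, 1.47 and 14.8 TPM in WT replicates 1 to 4. High and low mice occurred in both genotypes, and hSKP2-KI replicate 4, the highest mouse for the other 7 genes, was among the lower ones. The log2 fold change was 0.47 (95% confidence interval -0.75 to 1.69, limma adjusted p = 0.495).

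Cfd encodes complement factor D, or adipsin, a serine protease of the alternative complement pathway that adipocytes secrete. In hSKP2-KI replicates 1 to 4 its level was 37.2, 60.7, 45.3 and 460 TPM, against 223, 319, 55.9 and 262 TPM in WT replicates 1 to 4. Thus 3 hSKP2-KI mice and WT replicate 3 were low, and hSKP2-KI replicate 4 was above every WT mouse. The log2 fold change of -1.11 (95% confidence interval -2.75 to 0.54) did not pass the test (limma adjusted p = 0.244). Without hSKP2-KI replicate 4 it was -1.92 with an adjusted p of 0.0222, so the absence of a call for Cfd rested on that mouse. It was the only one of 128 values of the 8 genes under other settings with an adjusted p under 0.05.

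Of the genes of the lipid droplet, Plin1 encodes perilipin 1, which coats the large droplet of the adipocyte and holds lipolysis in check. It was measured at 5.49, 19.4, 11.5 and 31.0 TPM in hSKP2-KI replicates 1 to 4 and at 20.2, 20.4, 4.21 and 28.8 TPM in WT replicates 1 to 4. The order of the mice was close to that of Adipoq, with WT replicate 3 lowest, hSKP2-KI replicate 1 next and hSKP2-KI replicate 4 highest. Its log2 fold change was -0.10 (95% confidence interval -1.33 to 1.13, limma adjusted p = 0.890).

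Plin4 encodes perilipin 4, which covers small new droplets. Values of 11.5, 23.6, 17.4 and 40.4 TPM in hSKP2-KI replicates 1 to 4 faced 19.6, 23.0, 8.64 and 25.7 TPM in WT replicates 1 to 4. Cidec encodes a protein through which droplets fuse into a single large one, and it stood at 15.6, 40.2, 22.6 and 82.4 TPM against 48.5, 43.7, 7.80 and 51.8 TPM in the same order. For both genes the same 3 mice as for Plin1 stood at the ends of the range. The log2 fold changes were 0.22 for Plin4 (95% confidence interval -0.60 to 1.04) and 0.10 for Cidec (95% confidence interval -1.22 to 1.41), with limma adjusted p-values of 0.644 and 0.905.

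Fabp4, the cytosolic fatty acid carrier of adipocytes, was the most abundant of the 8 by mean TPM in hSKP2-KI prostates. It had 100.2, 272, 143 and 408 TPM in hSKP2-KI replicates 1 to 4 and 220, 223, 59.6 and 275 TPM in WT replicates 1 to 4. Lipe, which encodes hormone-sensitive lipase, varied least, with 15.4, 23.7, 15.0 and 29.4 TPM in hSKP2-KI and 19.0, 21.4, 9.98 and 23.3 TPM in WT prostates. Both genes followed the droplet genes across mice. Their log2 fold changes were 0.24 for Fabp4 (95% confidence interval -0.87 to 1.35) and 0.18 for Lipe (95% confidence interval -0.40 to 0.76), with limma adjusted p-values of 0.706 and 0.591. The intervals of all 8 genes are wide, and for every gene but Lipe they reach beyond 1 on the log2 scale in at least 1 direction, so differences of that size remain within the intervals.

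TPM has a fixed total, and 6 prostate epithelium markers, Sbp among them, took 253809 to 290673 TPM of it in hSKP2-KI and 326655 to 378710 TPM in WT prostates. Over all genes tested, the log2 fold change had a median of 0.23, and over the 8 transcripts of 0.14. After median-ratio scaling, which brings the median of all genes to -0.01, the median of the 8 was -0.12, 7 of the 8 values were negative, and again 0 of 8 had an adjusted p under 0.05, where 11.2% of all tested genes did, 6.92% as higher and 4.25% as lower. Plin4, Fabp4, Cidec and Lipe changed sign with this scaling, with values from -0.16 to -0.03, so no direction can be given for them. Of the others, Adipoq, Plin1 and Lep changed sign in at least 1 fit that left out a mouse. The intervals of all 8 include 0.

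Fabp4 is also made by capillary endothelium and by macrophages, and the markers of both stood higher in hSKP2-KI prostates. Among all tested genes 32.7% were called higher. Of 8 endothelial markers 5 rose and 0 fell, with a summed level of 46.1 to 85.2 TPM in hSKP2-KI and 30.2 to 45.0 TPM in WT prostates, and 2 of the 5 kept an adjusted p under 0.05 after median-ratio scaling. Of 8 macrophage markers 7 rose, with sums of 329 to 852 and of 138 to 294 TPM, and after median-ratio scaling limma called 0 of 8 by adjusted p and 6 of 8 by unadjusted p under 0.05. All of these markers were above 0 in every mouse, and their part in the level of Fabp4 was not tested.

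The spread among mice of the same genotype set these transcripts apart from most genes. The SD of log2(TPM + 1) within genotypes was 1.42 for Cfd, 1.14 for Cidec, 1.06 for Plin1, 1.05 for Lep, 1.04 for Adipoq, 0.95 for Fabp4, 0.70 for Plin4 and 0.49 for Lipe. The median over all tested genes was 0.16, and all 8 lay above the 95th percentile of 0.41. In a ranking of the 13080 tested genes by this SD, Cfd was at place 13 and Lipe, the last of the 8, at place 374. The genotype accounted for 0.235% of the variance of Cidec and for 16.8% of that of Cfd, with a median of 2.64% over the 8 genes against 45.4% over all tested genes. Expressed as the ratio of the highest to the lowest mouse, the range was 12.3 for Cfd, 11.9 for Lep, 10.6 for Cidec, 6.58 for Adipoq and 2.95 for Lipe.

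**Figure D2:**
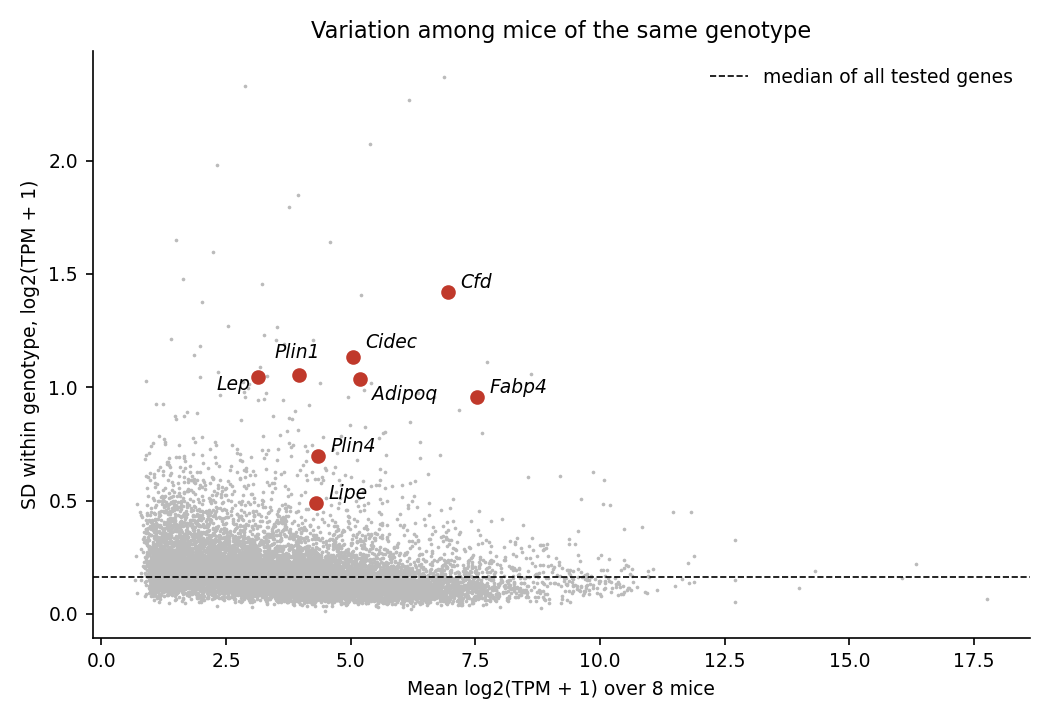
SD of log2(TPM + 1) within genotypes (vertical axis) against the mean log2(TPM + 1) over 8 mice (horizontal axis) for the 13080 tested genes in grey and the 8 adipocyte transcripts in red. The dashed line marks the median SD of 0.16, and the 8 transcripts lie between 0.49 and 1.42.

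The 6 transcripts other than Lep and Cfd rose and fell together from mouse to mouse, and Cfd followed them less closely. Over the 8 mice, the Pearson r of log2(TPM + 1) among the 15 pairs of the other 6 genes ranged from 0.86 to 0.99. The pair of Lep and Cfd had an r of 0.12. With the other 6 genes, Lep had r from 0.56 to 0.65. Cfd had r from 0.70 with Lipe to 0.87 with Adipoq, the latter within the range of the 15 pairs. These r describe 8 libraries in which all genes share the same tissue piece and the same scaling. The mean log2(TPM + 1) of the 8 transcripts was 4.10, 5.29, 4.74 and 6.04 in hSKP2-KI replicates 1 to 4 and 5.51, 5.42, 3.61 and 5.75 in WT replicates 1 to 4. A WT mouse had the lowest and an hSKP2-KI mouse the highest mean, with 3 hSKP2-KI mice next to the lowest, and the difference of the genotype means was -0.03.

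**Figure D3:**
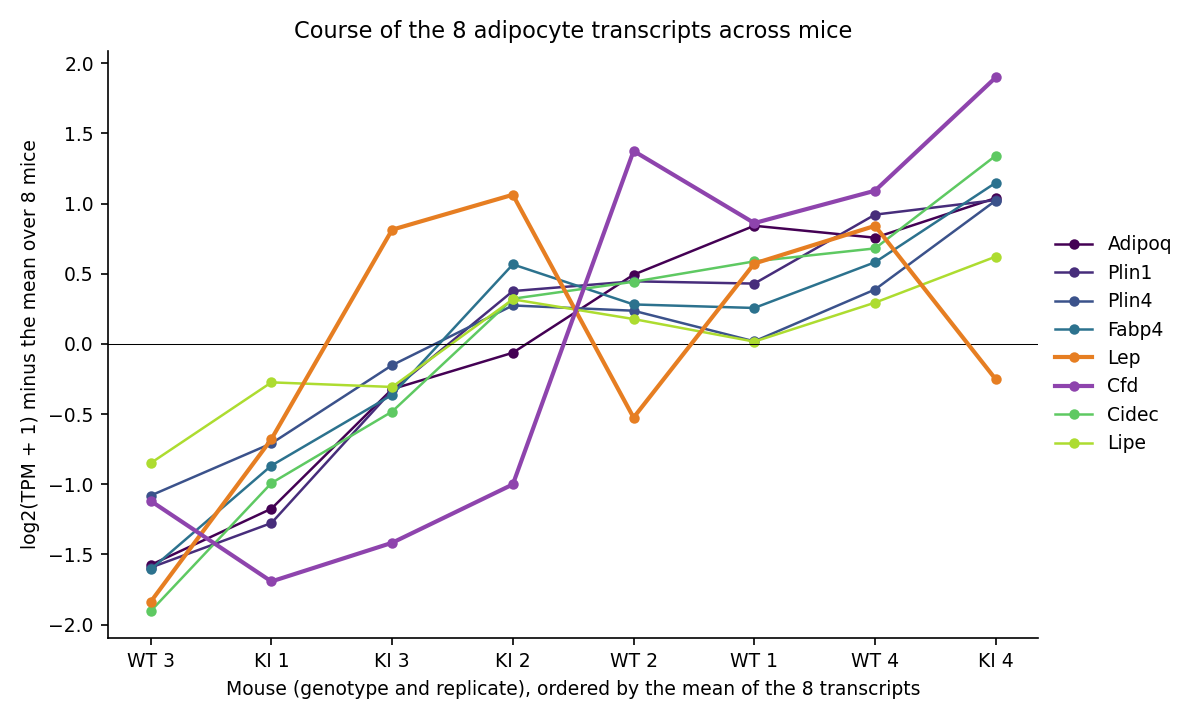
log2(TPM + 1) of each transcript minus its mean over 8 mice (vertical axis), with the mice ordered from the lowest to the highest mean of the 8 transcripts (horizontal axis), KI standing for hSKP2-KI. The 6 thin lines rise together from WT replicate 3 to hSKP2-KI replicate 4. Lep (orange) is high in hSKP2-KI replicates 2 and 3, and also in WT replicate 4. Cfd (purple) is low in hSKP2-KI replicates 1 to 3, and also in WT replicate 3.

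The level of each transcript was next divided by that of Adipoq in the same mouse, which cancels the scaling of the sample. These ratios were chosen after the levels had been seen and are given with no test. For Plin1 the ratio to Adipoq stayed between 0.315 and 0.576 and for Cidec between 0.698 and 1.19, while Adipoq itself varied 6.58-fold. Over the 8 mice these ratios spanned 1.83-fold and 1.71-fold, and that of Fabp4 2.36-fold. The ratio of Plin4 to Adipoq ranged from 0.307 to 0.774, a span of 2.52-fold, and that of Lipe from 0.297 to 1.02, a span of 3.43-fold. Fabp4 had 5.10 to 8.09 TPM for each TPM of Adipoq in hSKP2-KI and 3.43 to 5.34 in WT prostates, so that only the lowest hSKP2-KI mouse was below the highest WT mouse.

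The ratios of Lep and Cfd to Adipoq spanned 5.95-fold and 3.95-fold, the latter not far above that of Lipe. The ratio of Lep to Adipoq was 0.299, 0.517, 0.518 and 0.0871 in hSKP2-KI replicates 1 to 4 and 0.189, 0.103, 0.131 and 0.246 in WT replicates 1 to 4. The ratio of Cfd to Adipoq was 2.47, 1.80, 1.62 and 6.26 in hSKP2-KI replicates and 3.49, 6.39, 5.01 and 4.36 in WT replicates. In hSKP2-KI replicates 1 to 3 the leptin ratio was above and the adipsin ratio below that of every WT mouse, while hSKP2-KI replicate 4 had the lowest leptin ratio of all 8 mice. The direct ratio of Lep to Cfd, which does not contain Adipoq, was 0.121, 0.287 and 0.320 in hSKP2-KI replicates 1 to 3, 0.0139 in hSKP2-KI replicate 4 and 0.0160 to 0.0564 in WT prostates. The same 3 mice were thus above all WT mice, and the ratio spanned 23.0-fold.

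**Figure D4:**
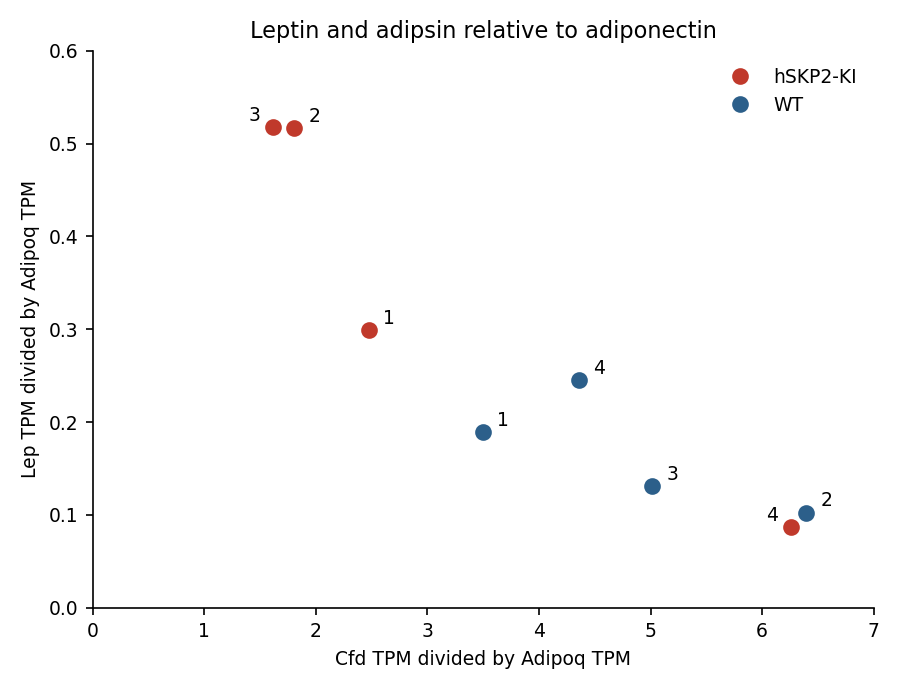
TPM of Lep divided by TPM of Adipoq (vertical axis) against TPM of Cfd divided by TPM of Adipoq (horizontal axis) in each mouse, numbered by replicate; both ratios share their denominator. hSKP2-KI replicates 1 to 3 lie at the upper left, with Cfd ratios of 1.62 to 2.47, and hSKP2-KI replicate 4 lies beside WT replicate 2 at the lower right.

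A fast skeletal muscle transcript was high in the libraries with the highest Cfd, but not in all libraries with high Cfd. Of 6 skeletal muscle markers, Myh4, a fast muscle myosin, had 12.3 TPM in hSKP2-KI replicate 4, 12.6 TPM in WT replicate 2 and at most 0.307 TPM in the other 6 mice. The summed level of the 6 markers was 256 to 437 TPM in hSKP2-KI and 161 to 311 TPM in WT prostates. Most of it was Acta1, with at least 151 TPM in every mouse, so the sum mainly describes that gene. Of 4 tested markers 1, Acta1, rose, where 32.7% of all tested genes were called higher. Acta1 had no call after median-ratio scaling (limma adjusted p = 0.052). Ckm, Mylpf and Myh1 were not called (limma adjusted p = 0.805, 0.684 and 0.899). The libraries of hSKP2-KI replicate 4 and WT replicate 2 also had the highest levels of Cfd and the lowest ratios of Lep to Cfd. The part of these muscle transcripts in the levels of Cfd and Lep was not tested.

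Among the 13072 tested genes outside the 8, the 10 whose log2(TPM + 1) was most like the mean of the 8 transcripts had a Pearson r between 0.93 and 1.00 and a Spearman rho between 0.81 and 1.00 over the 8 mice, given as a description. The first was Car3, carbonic anhydrase 3, an abundant cytosolic enzyme of adipocytes. It had 99.0, 275, 152 and 478 TPM in hSKP2-KI replicates 1 to 4 and 318, 276, 60.6 and 394 TPM in WT replicates 1 to 4. Its order of mice was that of the mean of the 8 transcripts, with a rho of 1. Rbp4, which encodes the plasma carrier of retinol, ranged from 1.59 TPM in WT replicate 3 to 8.99 TPM in hSKP2-KI replicate 4. The others were Nnat (neuronatin), Abcd2 (a peroxisomal transporter of very long chain fatty acids), Rarres1, Ifi27l2a, Ces1f (a carboxylesterase), Trf (transferrin), Tusc5 and Syt12. Of the 10, 4 were also among the other adipocyte genes listed for this comparison. Without hSKP2-KI replicate 1 and WT replicate 3, the mice farthest from the median, r was between 0.67 for Tusc5 and 0.99 for Car3. In all, 17 of the 13072 genes had an r above 0.9, and the median r was 0.08.

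Other genes of adipocyte biology were taken in 11 lists of 85 genes, of which 75 passed the filter on low values. Of these 75, 24 rose and 0 fell in hSKP2-KI prostates (limma, adjusted p under 0.05), which is 32.0% against 32.7% of all tested genes called higher, close to the background in the TPM as deposited. The median log2 fold change of the 75 was 0.39 against 0.23 for all tested genes. After median-ratio scaling 11 rose and 3 fell, which is 18.7% of the 75 in either direction against 11.2% of all tested genes. The count was thus above the background under that scaling. Since the lists were chosen with earlier results of these data known, this excess is a description and no test of adipocyte genes. The medians were then 0.14 and -0.01.

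Of 7 tested genes of adipocyte progenitors, the fibroblast-like cells from which adipocytes form, 5 rose and 0 fell in hSKP2-KI prostates. Over all tested genes 32.7% were called higher, and 6.92% after median-ratio scaling. Pi16, Cd34 and Icam1, 3 of the 5, kept the call after that scaling. Pi16, a marker of progenitors in the connective tissue of fat and of other adventitial fibroblasts, had 48.8 ± 17.6 TPM in hSKP2-KI and 19.4 ± 5.66 TPM in WT prostates (SD, n = 4 each), a log2 fold change of 1.27 (limma adjusted p = 0.00417). Cd34 stood at 43.5 ± 10.2 against 19.0 ± 2.86 TPM, a log2 fold change of 1.14 (limma adjusted p = 0.00139), and it also marks endothelium. Pdgfra, the receptor that marks mesenchymal progenitors and fibroblasts at large, rose by 0.61 on the log2 scale and had an adjusted p of 0.147 after median-ratio scaling. All 8 markers of fibroblasts rose as well, with summed levels of 855 to 1497 TPM in hSKP2-KI and 470 to 669 TPM in WT prostates, and 3 of the 8 kept the call after median-ratio scaling. The part of fibroblasts in the progenitor genes was not tested. The median r of the progenitor genes with the mean of the 8 adipocyte transcripts was 0.20, and that of the secreted adipocyte factors was 0.87.

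**Figure D5:**
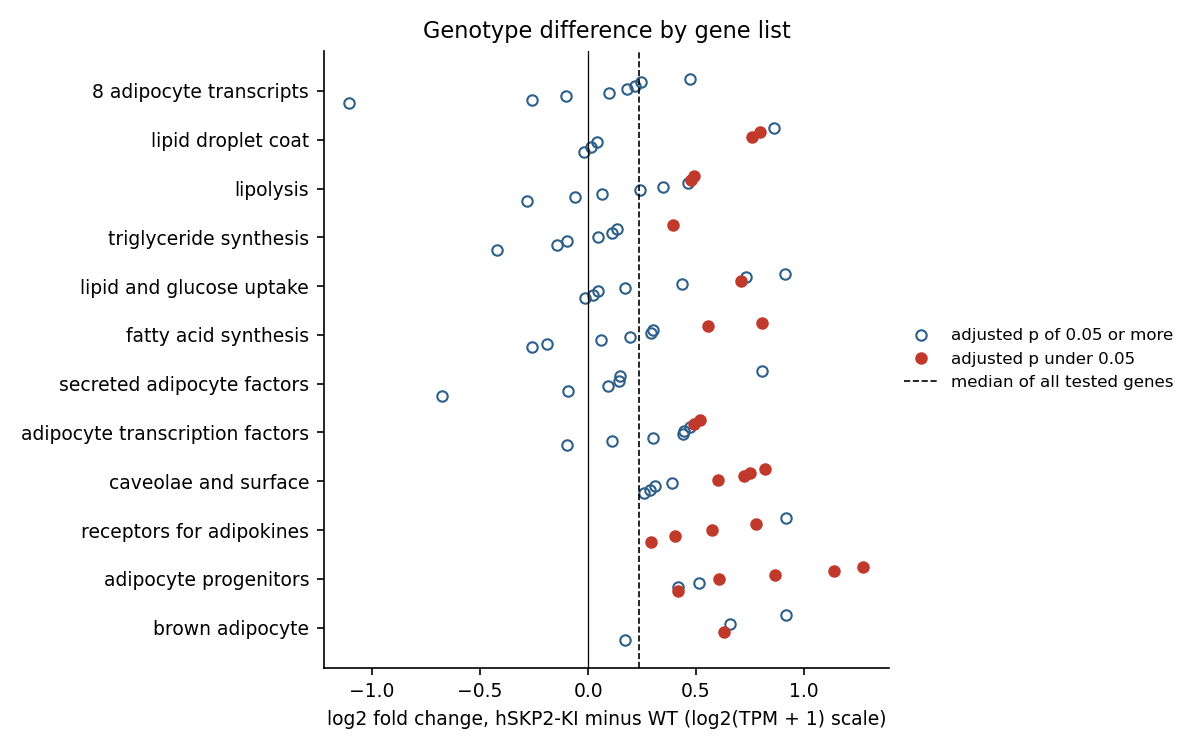
log2 fold change between hSKP2-KI and WT prostates (horizontal axis, log2(TPM + 1) scale) of each tested gene in the 11 lists and of the 8 adipocyte transcripts, with filled points for an adjusted p under 0.05. None of the 8 transcripts in the top row is filled, and 5 of 7 progenitor genes are, at up to 1.27. The dashed line is the median of all tested genes, 0.23.

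Genes that encode secreted factors of adipocytes did not pass the test, with 0 of 6 called by limma and 0 of 6 at an unadjusted p under 0.05. Retn, which encodes resistin, had 4.02, 2.80, 1.96 and 17.0 TPM in hSKP2-KI replicates 1 to 4 and 9.90, 10.1, 2.74 and 13.6 TPM in WT replicates 1 to 4. As for Cfd, hSKP2-KI replicate 4 was the highest mouse and the other 3 hSKP2-KI mice and WT replicate 3 were low. Of the triglyceride synthesis genes Pck1, which supplies the glycerol backbone, had 2.96, 8.15, 4.42 and 26.8 TPM in hSKP2-KI and 14.1, 14.9, 3.87 and 14.1 TPM in WT replicates 1 to 4. In this list 1 of 7 tested genes, Agpat2, rose, where 32.7% of all tested genes were called higher. It had no call after median-ratio scaling. Gpam and Lpin1, which act on either side of Agpat2 in the pathway, fell after median-ratio scaling by 0.36 and 0.40 on the log2 scale, with log2 fold changes of -0.10 and -0.14 in the TPM as deposited.

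Among genes of the lipid droplet coat 2 of 6 rose, where 32.7% of all tested genes were called higher. They were the lipase inhibitor gene G0s2 and Hilpda, which is induced by low oxygen. G0s2 went from 15.5 ± 1.66 to 27.8 ± 3.58 TPM and Hilpda from 13.9 ± 2.66 to 24.0 ± 1.74 TPM (SD, n = 4 each), with log2 fold changes of 0.80 and 0.76 and limma adjusted p-values of 0.0015 and 0.00309. Both kept the call after median-ratio scaling. Plin2, the perilipin found in most cell types, had 13.7, 50.3, 14.0 and 17.2 TPM in hSKP2-KI replicates 1 to 4. In WT prostates it had 8.08 to 13.1 TPM. The genotypes thus did not overlap, as for 34% of all tested genes with hSKP2-KI higher. Its log2 fold change of 0.86 did not pass (limma adjusted p = 0.0705). Of the caveolar and surface genes 4 of 8 rose, among them Cav1 and Cavin1, the coat proteins of caveolae in adipocytes, endothelium and smooth muscle, with log2 fold changes of 0.82 and 0.75. The smooth muscle markers moved with them: 6 of 6 rose, 2 of them also after median-ratio scaling, with summed levels of 2796 to 4323 TPM in hSKP2-KI and 1917 to 2397 TPM in WT prostates, and their part in the caveolar genes was not tested.

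In the lipolysis list 2 of 8 genes rose, among them Pde3b, where 32.7% of all tested genes were called higher. After median-ratio scaling limma called 0 of 8 by adjusted p and 3 of 8 by unadjusted p under 0.05. In lipid and glucose uptake 1 of 8 rose, Lrp1, without a call after median-ratio scaling, while the lipoprotein lipase gene Lpl was measured at 30.8 to 109 TPM in hSKP2-KI and 17.9 to 67.9 TPM in WT prostates. Of the fatty acid synthesis genes Me1 and Acss2 rose, 2 of 8. Me1 kept the call after median-ratio scaling, and Acss2 kept it narrowly there (limma adjusted p = 0.0479) but not with quantile normalization (0.0742) or without the 20 most abundant genes (0.0682). Pparg, the master transcription factor of adipocytes, had 3.84 ± 0.908 TPM in hSKP2-KI and 2.97 ± 1.01 TPM in WT prostates (SD, n = 4 each), which did not pass the test (limma adjusted p = 0.227). In its list 2 of 8 rose, Cebpd and Ebf2, and neither passed after median-ratio scaling, under which Klf15 fell.

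Of 5 receptors, 4 for adipokines and C3ar1 for a complement fragment, 4 rose, where 32.7% of all tested genes were called higher. Cdh13, T-cadherin, which binds adiponectin on vessel walls, went from 6.58 ± 1.48 to 11.8 ± 1.12 TPM (SD, n = 4 each), a log2 fold change of 0.78 that kept its call after median-ratio scaling (limma adjusted p = 0.00449 and 0.0299). The adiponectin receptor genes Adipor1 and Adipor2 had log2 fold changes of 0.29 and 0.40, and the leptin receptor gene Lepr 0.57, and none of these 3 passed after median-ratio scaling. The brown adipocyte genes Ucp1, Elovl3 and Zic1 were listed at 0 in all 8 mice, and 1 of the 4 tested genes of that list, Dio2, rose, without a call after median-ratio scaling. A value of 0 does not by itself show absence in this table, since the mitochondrial CYTB and COX1 were listed at 0 too.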

How the data were processed

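RNA of ventral lobes from 4 hSKP2-KI and 4 WT mice was sequenced by the authors as poly-A selected, paired-end libraries. The authors trimmed and checked the reads with CLC, mapped them to mouse sequence, and the submitters' processing notes name the builds mm10 and GRCm38. Annotation, version and strand setting are not given in the sources used here. The authors deposited TPM values of 36333 genes, listed by symbol and Entrez identifier. TPM carries no depth, so no counting interval was computed. The number of columns from other samples was 0.

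A gene was kept if 4 or more mice reached 1 TPM, and tests were run on log2(TPM + 1), a scale that understates changes of low genes. limma 3.58.1 in R 4.3.3 was used with a mean-variance trend and no covariate, and p-values were adjusted by Benjamini-Hochberg over all 13080 genes. The fit was tested on simulated data. Intervals are limma's. Python 3.11.15 with matplotlib 3.10.9 made the plots. Plin2, Cavin1 and Cavin2 were matched by Entrez identifier.

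The 8 genes and the lists were chosen with earlier results of these data known. The genes named were the 8, in each list at most 4 with the largest change plus those called, and the 10 most like the mean of the 8. Lpl, Pparg, Myh4, Acta1 and the B cell genes were named after their values were seen, and not every gene within the rule is described. Replicate numbers do not pair the mice: same-numbered mice correlated at 0.22, -0.11, 0.17 and -0.01 after removal of genotype means. Alternatives were a pseudocount of 0.1, no filter, a mean TPM of at least 5, 3 scalings, a replicate block, sample quality weights and leaving out each mouse. Some genes of the lists are not reported here.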

Additional observations from a re-analysis of the deposited data

Results flagged for a closer look

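In both genotypes together, 44 groups of 4 mice were tested for a mouse apart from the rest, and 7 were marked. Each mark was WT replicate 3 against the other WT mice. Chance marks about 1 in 20 of independent groups. The gap to the next mouse, as a share of the range of the 4 WT mice on the log2(TPM + 1) scale, was 0.856 for Adipoq at 11.2 TPM, 0.851 for Fabp4 at 59.6 TPM and 0.908 for Cidec at 7.80 TPM, above Dixon's critical value at the 95% level. For the mean of the 8 transcripts, 3.61, it was 0.847. Among the genes most like that mean it was 0.899 for Rarres1 at 0.974 TPM, 0.932 for Ifi27l2a at 13.3 TPM and 0.971 for Trf at 26.1 TPM. These genes follow each other across mice, and some were picked for likeness to the mean of the 8. The 7 marks are thus not independent, and their count cannot be set against that chance rate. No mouse of the hSKP2-KI group was marked, and the ratios of Lep and Cfd to Adipoq and of Lep to Cfd marked none.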

How the results depend on the processing

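The call of 0 of the 8 adipocyte transcripts held under every setting tried except 1: without hSKP2-KI replicate 4, 1 of 8 passed, Cfd, and the count ranged from 0 to 1 when each mouse was left out. Signs of the fold changes were less steady. Under median-ratio scaling, quantile normalization and leaving out the 20 most abundant genes, the log2 fold change turned to -0.037, -0.0084 and -0.017 for Plin4, to -0.16, -0.12 and -0.14 for Cidec and to -0.075, -0.063 and -0.055 for Lipe, and Fabp4 turned to -0.025 under the first and to -0.0031 under the third. Leaving out each mouse gave ranges of -0.83 to 0.089 for Adipoq, -0.65 to 0.31 for Plin1, -0.11 to 0.49 for Plin4, -0.25 to 0.57 for Fabp4, -0.060 to 0.83 for Lep, -1.92 to -0.73 for Cfd, -0.52 to 0.44 for Cidec and -0.073 to 0.31 for Lipe. The difference in the mean of the 8 ranged from -0.52 without WT replicate 3 to 0.28 without hSKP2-KI replicate 1. Without WT replicate 3 the log2 fold change of every one of the 8 was negative, that of Cfd at -1.66. The lower ends of the ranges of the genes other than Cfd came from that fit. No gene of the 8 passed there.

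Over all genes, 4433 calls (96.4% higher) became 1461 (61.9% higher) with median-ratio scaling, 1317 (53.8% higher) with quantile normalization and 1321 (67.1% higher) without the 20 most abundant genes, and 2993 to 4677 with a mouse left out. Of the other adipocyte genes, 24 calls became 14, 12 and 11 under those scalings and 15 to 29 with a mouse left out, the lowest without WT replicate 1. The cause was not tested. With a replicate block, 5128 genes, 0 of the 8 and 31 other adipocyte genes were called. The numbers do not pair the mice. Depth is unknown for TPM, so no limit from counting can be given. The p-values rest on the spread between 4 mice a group after limma moved it toward the trend of all tested genes. For the 8 transcripts, which vary more than most genes, the spread used was smaller than their own.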

Other observations

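At the other end of the ranking by likeness to the mean of the 8 adipocyte transcripts, the 10 tested genes with the lowest Pearson r over the 8 mice included the B cell genes Ms4a1, Cd79b and Cd79a. Their r was -0.87, -0.85 and -0.85, and without the 2 mice farthest from the median -0.73, -0.52 and -0.76, all given as a description. Cd79a, a signalling chain of the B cell antigen receptor, had 9.71 TPM in WT replicate 3, the mouse with the least adipocyte RNA, 5.50 to 5.96 TPM in hSKP2-KI replicates 1 to 3 and 1.23 TPM in hSKP2-KI replicate 4, the mouse with the most. In the other 3 WT mice it was 0.573 to 1.71 TPM. Ms4a1, which encodes CD20, had 2.51 TPM in WT replicate 3 and 0.123 to 1.74 TPM in the other 7 mice. What these mice share in dissection or tissue makeup was not tested.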
